A study of Mus musculus with 8 samples.

Results

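The 39 Hox genes of the 4 mouse clusters were followed through embryoid body differentiation with and without induced Oct6. They were taken by name, as every gene called Hoxa, Hoxb, Hoxc or Hoxd with a paralogue number from 1 to 13, and make up 39 of the 22558 genes in the expression table: 11 in Hoxa, 10 in Hoxb, 9 in Hoxc and 9 in Hoxd. Mouse embryonic stem cells of the lines R1 and R1/E, kept on feeder cells, were grown into embryoid bodies, floating aggregates in which germ layer derivatives form. One arm was a control, and in the other doxycycline switched on Oct6, the POU domain factor encoded by Pou3f1. RNA was sequenced at days 2, 4 and 6 in both arms, 1 library per arm and day (6 libraries). Chromatin bound by Oct6 was sequenced from overexpressing cells at day 4, with 1 ChIP and 1 input library. Doxycycline is named for the induced samples alone, and the labels do not say which of the lines each arm used or whether the transgenic cells were 1 clone. In such a design Oct6 cannot be told apart from the drug or the line. Serum-free culture is stated, while library titles carry the unexplained prefix fbs.

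Hox genes encode homeodomain factors that give cells along the body axis their position. In each cluster the genes stand in the order of their paralogue numbers, and low numbers are switched on earlier and further forward (hindbrain) than high numbers (trunk, tail and limb ends). The clusters are silent in embryonic stem cells under Polycomb repression, and retinoic acid, Wnt and FGF signals and the Cdx factors open them.

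Depth was estimated at 23300000 to 51000000 fragments per library, so that 1 fragment in a 2 kb transcript was worth 0.0098 to 0.0215 FPKM (fragments scaled to transcript length and to the size of the library). Pou3f1 itself had 64.3, 10.1 and 4.76 FPKM in control cells at days 2, 4 and 6, and 312, 222 and 86.8 in induced cells. Pou5f1, the gene of the pluripotency factor Oct4, was at 136 FPKM or more in each library. Folds are given as differences of log2(FPKM + 1), which understate the change of weak genes. A gene was counted as 2-fold higher or lower where this difference was at least 1 and at least 1 of both libraries reached 1 FPKM. A comparison of 2 libraries has no replicate check and no test. Fewer cells that express a gene and less RNA per cell cannot be told apart in such bulk libraries.

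Few Hox genes were detected above 1 FPKM in control cells before day 6, while in induced cells a group of them, mostly Hoxb genes, was above it from day 2 on. In control cells 1, 0 and 14 of the 39 reached 1 FPKM at days 2, 4 and 6, against 11, 11 and 32 in induced cells. The FPKM of all 39 genes summed to 9.28, 5.90 and 38.9 in control and to 37.9, 47.1 and 119 in induced cells, 4.08, 7.98 and 3.05 times the control. The induced library of day 2 thus held nearly the Hox sum that control cells reached at day 6, but its make-up differed. Hoxd13 was 6.93 FPKM of the induced day 2 sum and 0.329 of the control day 6 sum. Hoxc genes were 1.51 and 6.52 FPKM of these sums. The median difference over the 39 genes was 0.23, 0.53 and 0.91 at days 2, 4 and 6, while it was 0.17, 0.10 and 0.06 over all genes that reached 1 FPKM in either library.

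Of the 39 genes, 8 were at least 2-fold higher in induced cells at day 2, 10 at day 4 and 16 at day 6. Among all genes with 1 FPKM in either library, 9.72%, 6.09% and 3.37% were. Over all rows of the table, the same base as the 39, the shares were 5.42%, 3.42% and 1.92%. No Hox gene was 2-fold lower on any of the days, where 1.83%, 2.11% and 2.1% of genes were. A gene can be 2-fold lower only where its control library reaches 1 FPKM, as it did for 1, 0 and 14 of the 39. At day 2 only Hoxd13 could thus be called lower, and at day 4 no Hox gene could. Only 11, 11 and 32 of the 39 reached 1 FPKM in either library on the 3 days, and 18 of the 39 reached it in induced libraries alone, so that these genes could pass the rule only as higher. At any size of difference, 35, 34 and 36 of the 39 genes were higher in induced cells, against 63.3%, 60.1% and 58.5% of genes. On each of the 3 days 29 were higher, against 29.5% of genes. The scaling of the libraries bears on these counts: 33, 33 and 36 Hox genes were higher after median ratio scaling and 29, 32 and 35 after quantile normalisation, and the latter left 10 genes 2-fold higher at day 6. Of all genes 2-fold higher or lower, 84.2%, 74.2% and 61.6% were higher as deposited, 75.2%, 66.8% and 56.7% after median ratio scaling and 61.1%, 58.5% and 51.4% after quantile normalisation. At day 2 median ratio scaling moved the median of all genes from 0.17 to 0.03, so the sign of a day 2 difference under that size can depend on the scaling. The genes 2-fold higher on all 3 days were 4, Hoxa5, Hoxb2, Hoxb3 and Hoxb4 (1.03% of genes), and 21 were so on at least 1 day (12.7%).

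**Figure D1:**
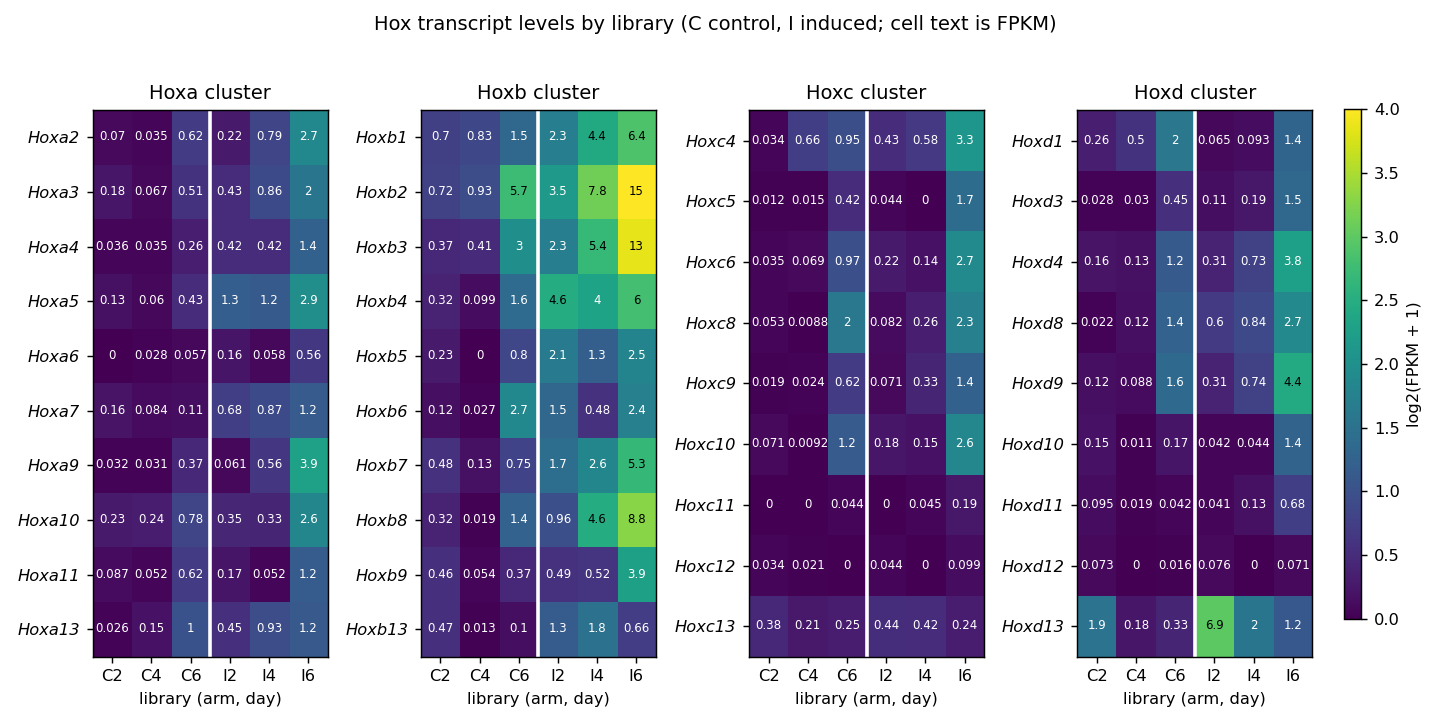
Level of the Hox genes, all but 1, in each library, 1 panel per cluster with paralogue numbers rising downward; columns are the control (C) and induced (I) libraries of days 2, 4 and 6, colour is log2(FPKM + 1) and the cell text is FPKM. Most Hoxb genes are bright in the induced columns, and Hoxd13 differs from its neighbours by its high day 2 values of 1.86 and 6.93 FPKM.

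The difference common to the 3 days was tested with limma, with day as a block, on the 13661 genes with 1 FPKM in some library, 33 Hox genes among them. No Hox gene passed at an adjusted p under 0.05 (0 of 33; 0.022% of genes, 3 in all, did). At an unadjusted p under 0.05, 18 of the 33 were higher and 0 lower, against 16.3% and 4.72% of the genes tested. Of the 33, 18 entered the fit only through induced libraries, where they reached 1 FPKM, so this tally is partly set by the filter. With no minimum level, 14 of all 39 were higher and 1, Hoxd1, was lower, against 10.4% and 3.45% of all genes. Hoxd1 had a mean difference of -0.33 in that fit (unadjusted p 0.0131 and adjusted p 0.315 in limma). Hoxb4 had the smallest adjusted p, 0.0885 in limma's test, with a mean difference of 1.90 (SE 0.22) and a higher level in induced cells on 3 of 3 days. Without day 2, Hoxb3 and Hoxb8 passed in limma, with differences of 2.03 (adjusted p 0.0466) and 2.24 (adjusted p 0.0497) over the other days. Over all alternatives run, the adjusted p of limma ranged from 0.0466 to 0.529 for Hoxb3 and from 0.0497 to 0.578 for Hoxb8. The error in this fit comes from how the effect varied over days, since no culture was repeated.

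The Hoxb cluster held most of the induced signal. It made up 45.1%, 42.6% and 46.0% of the summed Hox FPKM in control cells and 54.6%, 69.8% and 54.3% in induced cells. Its sum was 4.19, 2.51 and 17.9 FPKM in control and 20.7, 32.9 and 64.5 in induced cells. Of its 10 genes, 5, 8 and 7 were 2-fold higher on the 3 days, with cluster medians of 1.053, 1.61 and 1.48. Hoxa had 2, 1 and 5 of 11 genes higher (medians 0.27, 0.73 and 0.97), Hoxc 0, 0 and 1 of 9 (0.07, 0.09 and 0.54) and Hoxd 1, 1 and 3 of 9 (0.11, 0.21 and 0.70).

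**Figure D2:**
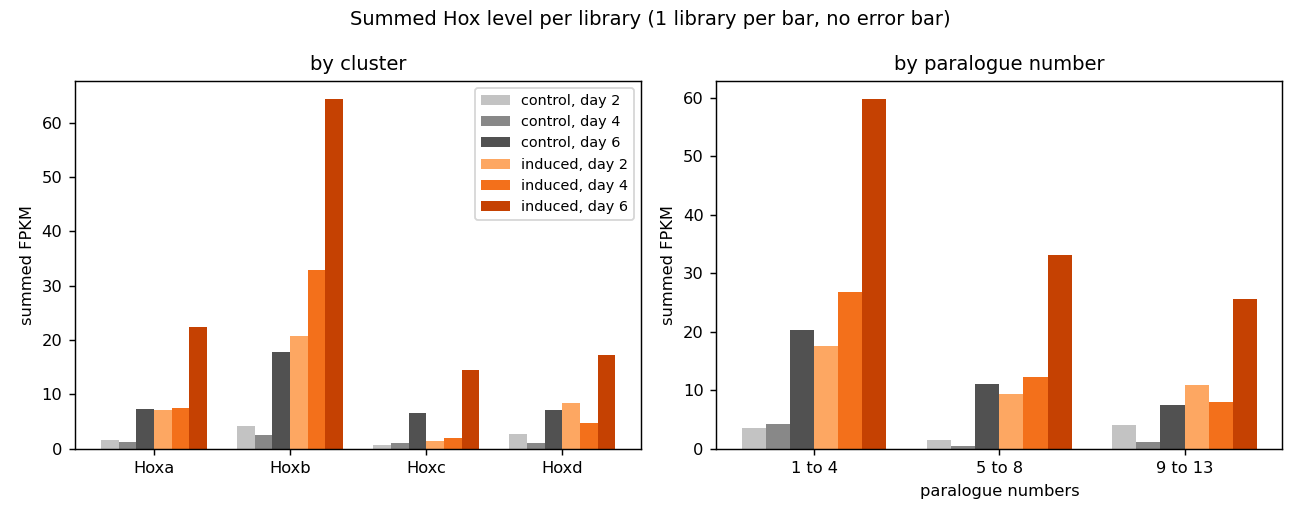
Summed FPKM of the Hox genes in each library, by cluster (left) and by paralogue number (right); each bar is 1 library and has no error bar. The Hoxb bars of the induced libraries, 20.7, 32.9 and 64.5 FPKM, stand above those of the other clusters on the same day.

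Among the anterior Hoxb genes, Hoxb1, a hindbrain factor of rhombomere 4, had 0.699, 0.831 and 1.54 FPKM in control cells at days 2, 4 and 6 and 2.27, 4.42 and 6.4 in induced cells. Hoxb2, which acts in the same hindbrain segments, had 0.723, 0.927 and 5.67 against 3.46, 7.76 and 15.02. Hoxb3 had 0.370, 0.411 and 2.96 against 2.29, 5.41 and 13.5. All induced values of Hoxb1 lay above all control values, while control day 6 of Hoxb2 and Hoxb3 exceeded induced day 2. Hoxb4, a factor of the caudal hindbrain and of blood progenitors, had 0.320, 0.0989 and 1.63 FPKM in control and 4.59, 4.02 and 6.01 in induced cells. Its arms did not overlap, and its difference at day 2, 2.08, was the largest of the 39 genes on that day. The control value of day 4 corresponds to an estimated 21 fragments, and the induced value to 406.

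Of the central Hoxb genes, Hoxb5 had 0.227 and 0.803 FPKM in control at days 2 and 6, was listed at 0 at day 4, and had 2.12, 1.31 and 2.5 in induced cells. Hoxb7 had 0.478, 0.133 and 0.747 against 1.73, 2.59 and 5.35. In both genes every induced library was above every control library. Hoxb8, a trunk gene that also keeps myeloid progenitors immature, had 0.316, 0.0185 and 1.39 FPKM in control and 0.963, 4.56 and 8.82 in induced cells. Its differences grew from 0.58 at day 2 to 2.45 at day 4 and 2.04 at day 6, the largest of the 39 genes on both later days. An estimated 3 fragments stood behind the control value of day 4, against 293 in the induced library. Hoxb6 did otherwise: it had 0.123, 0.0266 and 2.67 in control and 1.51, 0.481 and 2.37 in induced cells, so that it was 2-fold higher at day 2 and differed by -0.12 at day 6.

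Hoxb9, a thoracic gene, had 0.461, 0.0539 and 0.367 FPKM in control and 0.492, 0.520 and 3.85 in induced cells. At day 2 the difference was 0.03, and 1.83 at day 6. Hoxb13, a tail bud gene that lies apart from the rest of its cluster, had 0.471, 0.0128 and 0.104 against 1.25, 1.81 and 0.660. Its induced level was highest at day 4, unlike that of the other Hoxb genes.

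Hoxa2, Hoxa3 and Hoxa4 were below 1 FPKM in all libraries but that of induced day 6. Hoxa2 had 0.0703, 0.0349 and 0.618 FPKM in control against 0.223, 0.792 and 2.67 in induced cells, Hoxa3 had 0.181, 0.0667 and 0.509 against 0.427, 0.864 and 1.95, and Hoxa4 had 0.0363, 0.0352 and 0.265 against 0.419, 0.419 and 1.38. Hoxa5, which patterns the lung and neck skeleton, had 0.129, 0.0601 and 0.429 FPKM in control and 1.297, 1.19 and 2.92 in induced cells. Among Hoxa genes it alone was 2-fold higher on all 3 days, and its arms did not overlap, as those of Hoxa4 and Hoxa7 did not.

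Hoxa7 had 0.163, 0.0845 and 0.105 FPKM in control and 0.682, 0.874 and 1.23 in induced cells. Hoxa9, a gene of the posterior trunk and of blood progenitors, had 0.0319, 0.0314 and 0.367 against 0.0609, 0.556 and 3.88. Hoxa10 had 0.228, 0.238 and 0.782 against 0.349, 0.326 and 2.58. Both of these posterior genes were 2-fold higher at day 6, with differences of 1.84 and 1.01, after differences of 0.04 and 0.13 at day 2. Hoxa11, a limb and uterus gene, had 0.0868, 0.0515 and 0.623 against 0.174, 0.0523 and 1.24, and Hoxa13, of the limb ends and hindgut, had 0.0264, 0.147 and 1.02 against 0.448, 0.932 and 1.18. Neither reached a difference of 1 on any day.

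No Hoxc gene exceeded 0.665 FPKM at days 2 and 4 in either arm. Hoxc4 had 0.0336, 0.665 and 0.948 FPKM in control and 0.427, 0.584 and 3.28 in induced cells, and was the 1 gene of its cluster 2-fold higher, at day 6 (1.14). Hoxc5 had 0.0117, 0.0153 and 0.424 against 0.0438, a listed 0 and 1.67, and Hoxc6 had 0.0350, 0.0692 and 0.966 against 0.223, 0.141 and 2.72. Hoxc8, which specifies motor neurons of the brachial cord, had 0.0530, 0.00876 and 2.04 against 0.0824, 0.258 and 2.33. Its day 6 difference of 0.13 was small beside the 1.59 by which control cells differed between days 4 and 6. Hoxc9, the thoracic motor neuron factor, had 0.0186, 0.0241 and 0.624 against 0.0713, 0.326 and 1.36, and Hoxc10, its lumbar counterpart, had 0.0707, 0.0092 and 1.21 against 0.177, 0.149 and 2.63.

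In the Hoxd cluster the genes at both ends stood apart from those between. Hoxd1, at the anterior end, was lower in induced cells on each day, with 0.258, 0.497 and 2.02 FPKM in control and 0.0655, 0.0927 and 1.44 in induced cells. Its differences were -0.24, -0.45 and -0.30, the lowest of the 39 genes on each day, and none reached 1 in size. The arms of Hoxd1 overlapped, since its induced level of day 6 lay above its control levels of days 2 and 4. In limma its mean difference was -0.33 (SE 0.19, adjusted p 0.352). The other Hoxd genes of low and middle number were higher in induced cells at day 6. Hoxd3 had 0.0283, 0.0303 and 0.450 against 0.108, 0.194 and 1.53, Hoxd4 had 0.160, 0.128 and 1.199 against 0.310, 0.731 and 3.79, and Hoxd8 had 0.0222, 0.117 and 1.399 against 0.595, 0.836 and 2.71. Hoxd9 had 0.123, 0.0876 and 1.58 against 0.314, 0.736 and 4.43, and Hoxd10, a lumbar motor neuron gene, had 0.151, 0.0111 and 0.173 against 0.0418, 0.0437 and 1.41. Of these 5, Hoxd4, Hoxd9 and Hoxd10 were 2-fold higher at day 6 (1.12, 1.07 and 1.04).

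Hoxd13, the most posterior gene of the cluster and a factor of digits and genitalia, ran against the order of most others. It had 1.86, 0.177 and 0.329 FPKM in control and 6.93, 1.95 and 1.15 in induced cells. At day 2 it was the most abundant Hox gene of both libraries, and the 1 Hox gene above 1 FPKM in control. Its difference between arms was 1.47, 1.33 and 0.70. Between days 2 and 4 it was the 1 Hox gene 2-fold lower in each arm, with changes of -1.28 (control) and -1.42 (induced). Its neighbour Hoxd12 did not exceed 0.0763 FPKM in any library. The day 2 values of Hoxd13 rest on an estimated 171 fragments (control) and 468 (induced). Hoxa7, Hoxb9, Hoxb13, Hoxc12, Hoxc13, Hoxd11 and Hoxd12 also had their highest control level at day 2, each below 1 FPKM. Of these, Hoxc13 and Hoxd12 were highest at day 2 in induced cells too.

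**Figure D3:**
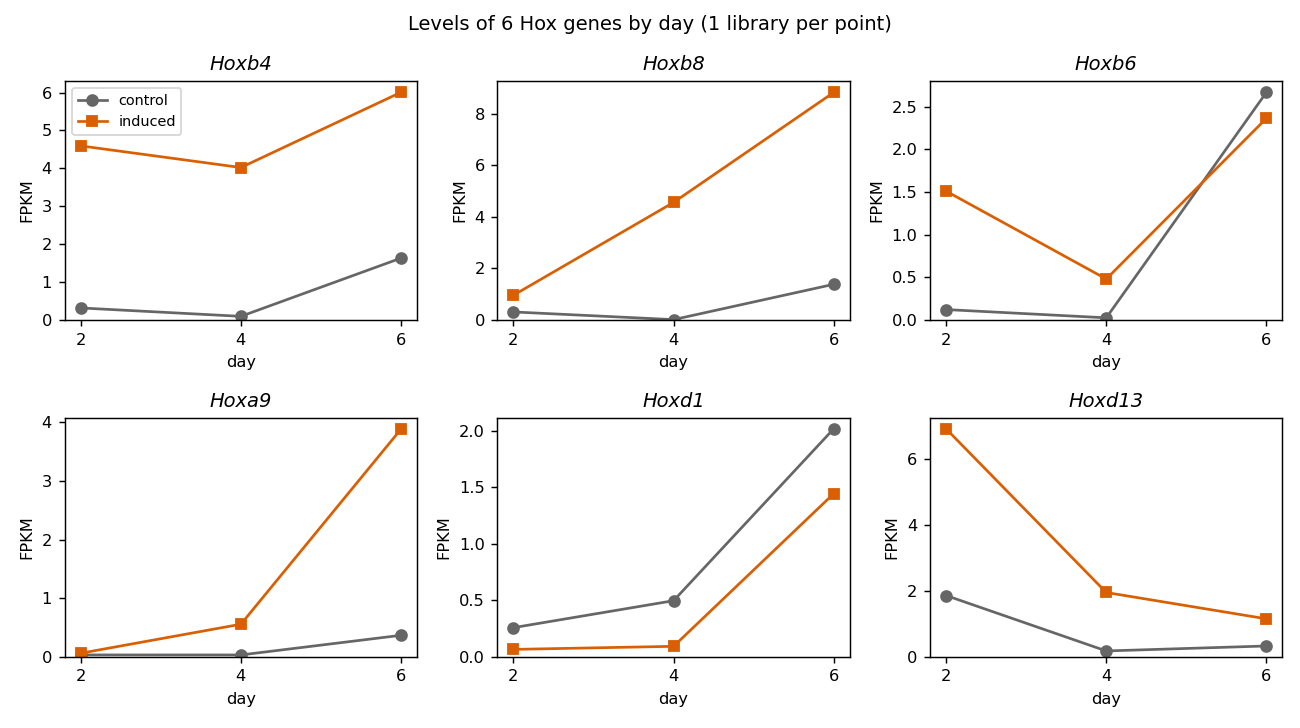
FPKM by day of 6 Hox genes in control (grey circles) and induced cells (orange squares), 1 library per point. All induced values of Hoxb4 lie above all its control values, while control day 6 of Hoxb8 exceeds its induced day 2. Hoxb6 and Hoxd1 are higher in control at day 6, and Hoxd13 is highest at day 2 in both arms (1.86 and 6.93 FPKM).

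The 6 Hox genes below 1 FPKM in every library were Hoxa6, Hoxc11, Hoxc12, Hoxc13, Hoxd11 and Hoxd12. Their highest values lay between 0.0763 and 0.682 FPKM. Hoxd11 and Hoxa6 had their highest value in the induced library of day 6 (0.682 and 0.565). Hoxc13 varied between 0.211 and 0.445 with no difference above 0.23 between the arms.

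Levels were also summed by paralogue number. Genes with the numbers 1 to 4 summed to 17.5, 26.8 and 59.8 FPKM over the 3 days in induced cells and to 3.61, 4.25 and 20.3 in control. Numbers 5 to 8 summed to 9.42, 12.3 and 33.2 against 1.56, 0.561 and 11.03. Numbers 9 to 13 summed to 10.9, 8.0 and 25.7 against 4.11, 1.10 and 7.53, and at day 2 Hoxd13 alone was 6.93 FPKM of the induced and 1.86 of the control sum. All 12 genes with the numbers 1 to 4 reached 1 FPKM in the induced library of day 6, as did 10 of 11 with 5 to 8 and 10 of 16 with 9 to 13. In control at day 6 the numbers were 7, 4 and 3. The 4 genes of group 9 summed to 0.938, 2.14 and 13.5 FPKM in induced cells and to 0.634, 0.197 and 2.94 in control. Its sum was highest at day 6 in both arms, as were those of groups 1 to 8, 10 and 11. Group 10 summed to 0.567, 0.519 and 6.62 in induced cells and to 0.450, 0.259 and 2.17 in control.

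**Figure D4:**
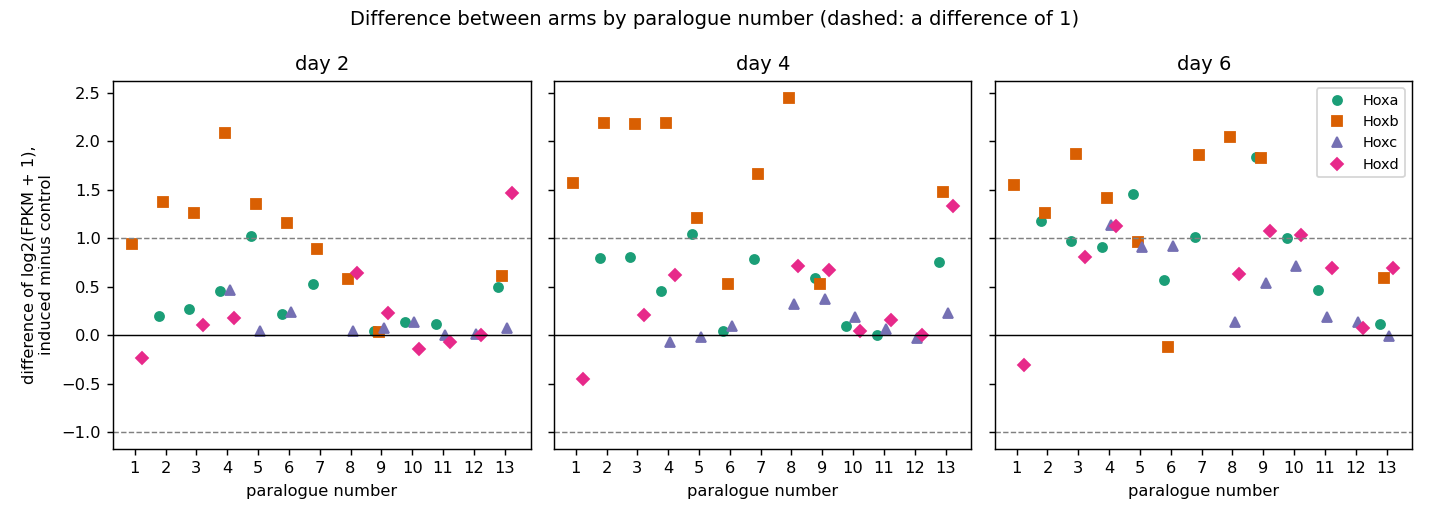
Difference of log2(FPKM + 1) between induced and control cells for the Hox genes, all but 1, by paralogue number, 1 panel per day; symbols mark the cluster and dashed lines a difference of 1. Hoxb genes lead their paralogues from number 2 to 8 at day 4, Hoxa9 and Hoxb9 exceed 1.8 only at day 6, and Hoxd1 lies below 0 on each day.

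Within an arm, neighbouring days were compared by the same rule; these comparisons share the day 4 libraries. From day 2 to day 4, 0 Hox genes were 2-fold higher in control (9.63% of genes) and 1, Hoxd13, was lower (4.65%); only Hoxd13 reached 1 FPKM in either of these libraries, so no other could pass. In induced cells 1, Hoxb8, was higher (2.73%) and 1, Hoxd13, was lower (2.36%). From day 4 to day 6, 11 were higher in control (6.15% of genes) and 18 in induced cells (2.98%), with 0 lower in either (2.97% and 2.1%). From day 2 to day 6, 9 were higher in control (17.2%) and 22 in induced cells (7.22%), and Hoxd13 alone was lower in each (6.73% and 5.35%). A gene can be lower only where the earlier library reaches 1 FPKM. In control only Hoxd13 did so at day 2 and no Hox gene at day 4, so no other could be lower there. In induced cells 11 did so on each of these days. Control levels were lowest at day 4 in 24 of the 39 genes. That library was the deepest, and 18 of the 39 rested there on an estimated 5 fragments or fewer. The highest control level was that of day 6 in 31 genes, and the highest of all 6 libraries was induced day 6 in 32. The exceptions to the latter included Hoxb6, Hoxb13, Hoxc13, Hoxd1, Hoxd12 and Hoxd13. These counts of lowest and highest levels have no share of all genes beside them. Whether they are particular to Hox genes was not tested.

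Across the arms as a whole, every induced library lay above every control library in 10 of the 39 genes, against 11.2% of genes with any reads. They were Hoxa4, Hoxa5, Hoxa6, Hoxa7, Hoxb1, Hoxb4, Hoxb5, Hoxb7, Hoxb9 and Hoxb13. None of them has a number of 10 to 12 or belongs to Hoxc or Hoxd.

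Exons of 18 of the 39 genes overlap another annotated gene, among them Hoxb7 with Hoxb8, Hoxd3 with Hoxd4, Hoxa2 with Hoxa3, and Hoxb3 with the antisense Hoxb3os. The sources used here do not say whether the libraries keep strand, so how reads were split between such pairs is uncertain. Of the transcripts that lie inside the clusters, the noncoding 2700086A05Rik of Hoxa had 0.0346, 0.0231 and 0.137 FPKM in control and 0.0445, 0.468 and 2.44 in induced cells. Hoxa11as had 0.116, 0.0902 and 0.248 against 0.247, 0.0208 and 1.42. Both, like the Hoxa genes around them, had their highest value in the induced library of day 6. Evx1, a homeobox gene of the posterior streak beside Hoxa13, had 0.1996, 19.2 and 5.55 against 0.201, 9.55 and 7.90, highest at day 4 in both arms, and the endosomal Snx11 beside Hoxb had 14.6, 6.66 and 8.28 against 16.7, 15.2 and 11.1. Of the 19 neighbours in the table, 8, 7 and 9 reached 1 FPKM in either library on the 3 days, so the others could not be called. On these days 0, 1 and 1 were 2-fold higher and 0 lower. Among all genes with 1 FPKM in either library, 9.72%, 6.09% and 3.37% were higher and 1.83%, 2.11% and 2.1% lower.

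The Oct6 peak list of day 4 holds 7979 peaks of 133 bp each. Only 3 had their centre in a Hox cluster or within 10 kb of one, 1 in Hoxa, 2 in Hoxb and 0 in Hoxc and Hoxd, over 0.572 Mb. That is 5.24 peaks per Mb, against 3.0 over the genome. A further peak lay 19180 bp beyond the Hoxd13 end of its cluster, and with 100 kb on each side the count was 4, or 3.10 per Mb. A peak within 10 kb of a start site was found for 7 of the 39 genes, 17.9%, against 15.3% of all table genes in the annotation. Within 50 kb it was 23 genes, against 34.6% of genes. Neighbouring Hox genes share these peaks, so the genes are not independent.

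The peak in Hoxb with the higher score, 11.4, lies in an intron of Hoxb4 (chromosome 11, 96177998 to 96182952, plus strand, mm9), 2642 bp after its annotated start and 4000 bp before that of Hoxb3. The list's median score, the authors' own value, is also 11.4, and its highest is 145.6. The peak in Hoxa scored 10.1, with 1.303% of the list lower, and lies 381 bp upstream of Hoxa4 (chromosome 6, 52139670 to 52141752, minus strand), inside introns of the long Hoxa3 transcript and of 2700086A05Rik. The remaining peak, also of score 10.1, spans the 3' end of Hoxb8 (chromosome 11, 96143219 to 96146639, plus strand), 2598 bp after its start and 1066 bp after that of Hoxb7, and lies in an untranslated exon of the long Hoxb7 transcript. Its letters are not shown for that reason. The peak beyond Hoxd13 (chromosome 2, 74506367 to 74509656, plus strand) scored 13.9, above 78.7% of the list, and lies between genes, 10289 bp downstream of a start of Evx2.

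Of the peaks at the clusters, 3 are shown, being those in an intron or between genes, to set the one that holds a POU motif beside those that do not. Letters are mm9, plus strand, and capitals mark a POU motif where one was found. The motifs searched on both strands were the octamer ATGCAAAT, a palindrome of 2 copies of ATGCAT end to end, on which POU factors bind as dimers (known as MORE), and the single ATGCAT, which every such palindrome holds.
Hoxa4 upstream peak, chr6:52142067-52142199: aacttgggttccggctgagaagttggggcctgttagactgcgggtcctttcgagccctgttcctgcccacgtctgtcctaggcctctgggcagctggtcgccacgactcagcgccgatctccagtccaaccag
Hoxb4 intron peak, chr11:96180574-96180706: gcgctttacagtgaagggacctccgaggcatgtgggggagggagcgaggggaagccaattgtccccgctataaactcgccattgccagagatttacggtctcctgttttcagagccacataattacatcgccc
Evx2 and Hoxd13 side peak, chr2:74487121-74487253: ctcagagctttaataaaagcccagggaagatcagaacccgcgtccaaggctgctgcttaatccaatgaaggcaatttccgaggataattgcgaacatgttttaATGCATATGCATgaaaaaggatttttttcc

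The peak beyond Hoxd13 holds the whole palindrome, which 43 of 7965 peaks (0.540%) do. The peaks at Hoxa4, Hoxb4 and Hoxb8 hold none of the 3 motifs, where 4.19% of peaks hold the octamer and 19.5% ATGCAT. RefSeq promoter windows (GRCm38.p6, from just before to just after a start) matched 22 of the 39 symbols, with 24 sequences. None of the 24 holds a motif, as against 1.74% of all 32851 promoters for the octamer and 5.04% for ATGCAT. These matches describe letters in these windows and nothing more.

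**Figure D5:**
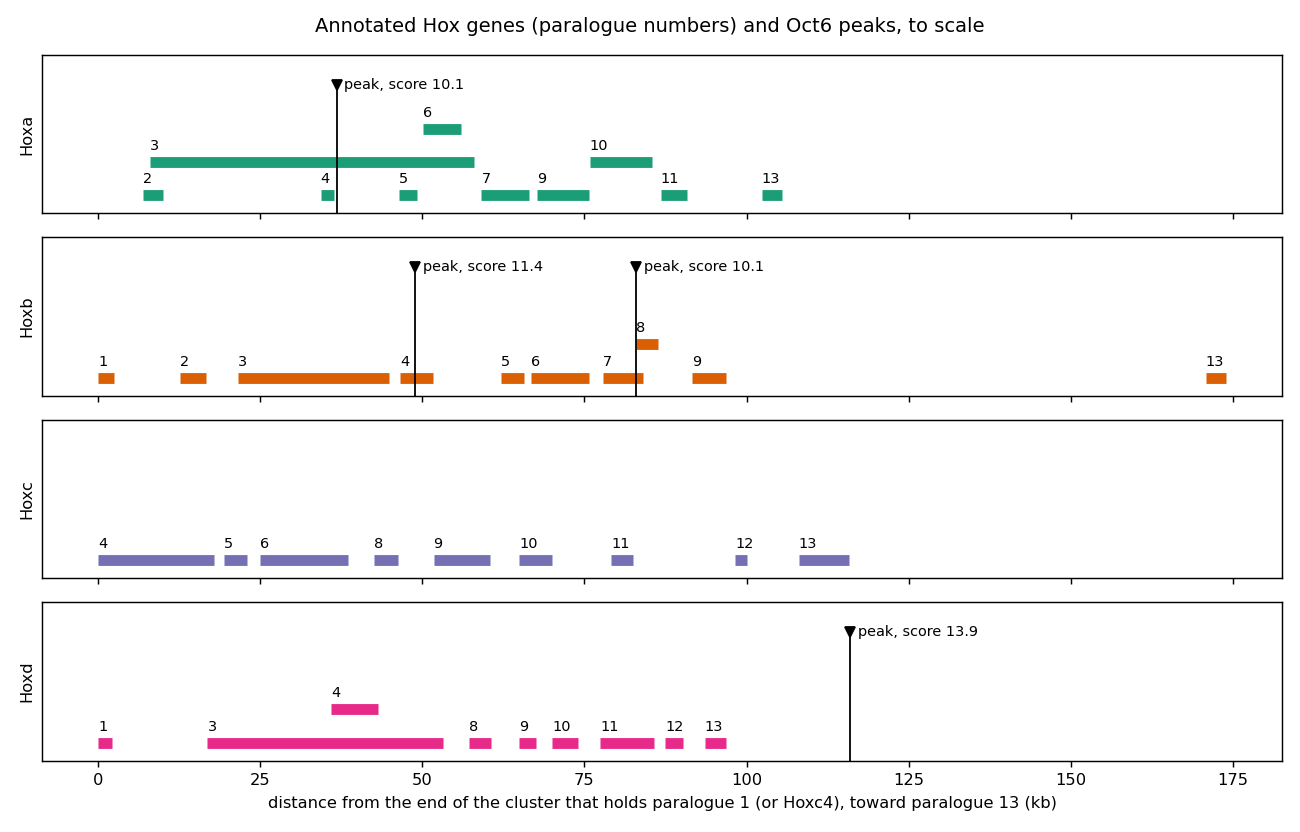
Annotated span of the Hox genes, all but 1 (bars, with paralogue numbers) and Oct6 peaks (triangles, with the authors' score) in the 4 clusters, drawn to scale as distance in kb from the end of the cluster that holds the lowest number. Peaks stand in Hoxa (10.1) and Hoxb (11.4 and 10.1), 1 stands beyond Hoxd13 (13.9), and Hoxc has 0.

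Hox proteins bind DNA with TALE homeodomain partners of the Pbx and Meis families. Of the 9 cofactor genes, 6, 3 and 1 were 2-fold higher in induced cells at days 2, 4 and 6 and 0 lower, with medians of 1.58, 0.63 and 0.26. Here and for the lists that follow, the shares of all genes with 1 FPKM in either library are 9.72%, 6.09% and 3.37% higher and 1.83%, 2.11% and 2.1% lower. Pbx3 had 5.05, 17.4 and 16.1 FPKM in control and 51.0, 48.9 and 41.8 in induced cells. Meis1 had 0.391, 0.237 and 8.10 against 7.62, 9.17 and 14.4, and Meis2 had 0.896, 2.16 and 13.6 against 6.69, 11.2 and 14.9. Pbx3 was more abundant than any Hox gene in each induced library, and the cofactors' differences were largest at day 2, when those of the Hox genes were smallest by median.

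The caudal regulators, factors and signals that open the clusters at the posterior end, were mixed. Of 8 genes, 0, 3 and 1 were 2-fold higher and 0, 1 and 0 lower. Cdx1, a direct activator of Hox genes, had 0.228, 0.470 and 0.171 FPKM in control and 1.10, 2.90 and 1.42 in induced cells. Gdf11, a TGF-beta ligand of the trunk to tail transition, had 1.49, 1.57 and 5.89 against 3.22, 5.16 and 8.64, and Nkx1-2, of the caudal epiblast, had 0.429, 0.715 and 2.17 against 0.469, 3.69 and 2.71. Fgf8 was lower in induced cells at day 4, with 1.37, 102 and 20.8 FPKM against 1.27, 46.0 and 18.4. Among the ParaHox genes, the sister cluster of Hox, Gsx1 had 0.562, 0.0434 and a listed 0 against 6.96, 0.838 and 0.666, and Cdx2 had 0.495, 2.77 and 8.57 against 0.999, 5.12 and 14.5. In that list of 6, 1 gene was 2-fold higher on each day and 0 lower.

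Genes of the retinoic acid pathway did not move together. Of 17, 1, 1 and 2 were 2-fold higher and 2, 1 and 2 lower, with medians of 0.28, 0.02 and -0.20. The binding proteins Crabp1 and Crabp2 were higher: Crabp1 had 6.46, 6.11 and 33.8 FPKM against 21.8, 85.4 and 134, and Crabp2 had 5.64, 18.6 and 35.9 against 12.2, 33.6 and 143. Cyp26a1, the enzyme that degrades retinoic acid, had 0.688, 82.0 and 76.4 against 0.380, 18.7 and 48.3. Rarb, a receptor gene that retinoic acid itself induces, had 0.140, 0.434 and 8.41 against 0.458, 0.284 and 2.10. It was 2-fold lower at day 6. The part of retinoic acid in the Hox differences was not tested.

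Regulators of hindbrain segments had 2, 3 and 1 of 5 genes 2-fold higher and 1, 1 and 0 lower. Irx3 had 0.655, 0.841 and 18.1 FPKM in control and 17.3, 14.9 and 12.8 in induced cells. Gbx2, which sets the front edge of the hindbrain, had 11.9, 0.483 and 1.25 against 25.3, 9.28 and 4.05. Egr2, the rhombomere 3 and 5 factor, had 0.256, 0.272 and 0.732 against 0.584, 1.93 and 0.771. On the other side, 1, 3 and 1 of 9 anterior homeobox genes were 2-fold higher and 1, 1 and 4 lower. Otx2, of the forebrain and midbrain, had 58.0, 94.6 and 56.0 against 9.67, 31.02 and 30.5. Six3, of the eye field, had 0.0497, 0.141 and 2.90 against 0.252, 0.215 and 0.284. Lhx2 had 0.270, 0.125 and 2.19 against 2.21, 2.36 and 0.955, and En2, of the midbrain and hindbrain border, had 1.64, 0.193 and 0.463 against 2.42, 6.82 and 9.79.

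Of 22 Polycomb genes 2, 2 and 0 were 2-fold higher and 1, 0 and 0 lower, against 9.72%, 6.09% and 3.37% higher and 1.83%, 2.11% and 2.1% lower among all genes; at days 2 and 4 the higher share is near that of all genes. Its members with the largest differences are given as values. Bmi1, a subunit of repressive complex 1, had 3.62, 4.53 and 13.1 FPKM in control and 12.4, 15.3 and 17.4 in induced cells, and Phc2, of the same complex, had 11.9, 27.9 and 45.1 against 35.6, 35.4 and 44.7. Jarid2, which guides complex 2, had 99.997, 35.7 and 25.8 against 41.05, 28.2 and 24.0. None of 9 trithorax and H3K27 demethylase genes found in the table was 2-fold higher or lower, with Ash2l at 163, 59.1 and 58.8 against 127, 77.7 and 68.0 FPKM.

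Markers of cell types differed between the arms. Their part in the Hox differences was not tested. Neuron markers, 4 in the table, summed to 80.6, 64.7 and 29.8 FPKM in control and to 139, 112 and 118 in induced cells, and 1, 2 and 4 were 2-fold higher. By any amount, 3, 4 and 4 of the 4 were higher, and 1 gene held most of the sum in each library but induced day 6. Neural progenitor markers, 6 genes, summed to 14.7, 21.9 and 19.6 against 22.0, 41.9 and 90.2, with 1, 4 and 2 higher. By any amount, 5, 4 and 6 of the 6 were higher, and 1 gene held most of the induced day 6 sum. Visceral endoderm had 6 markers that summed to 20.9, 108 and 165 against 4.57, 5.35 and 12.5, with 2, 6 and 6 lower and Afp at 0.0347 FPKM in induced cells at day 4. Primitive streak and mesoderm markers, 9 genes, summed to 46.3, 296 and 89.2 against 29.8, 194 and 75.9, with 0, 0 and 1 higher and 0, 3 and 2 lower. By any amount, 3, 2 and 5 of the 9 were higher in induced cells, with medians of -0.01, -0.54 and 0.25. At day 2 only 3 of the 9 reached 1 FPKM in either library, and 1 gene held most of the sum in each arm. Pluripotency markers, 5 genes, summed to 1500.1, 723 and 222 against 763, 768 and 271, with 0, 1 and 1 higher and 3, 0 and 0 lower.

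The cells were kept on fibroblast feeders, which express Hox genes. The 12 fibroblast markers summed to 13.5, 11.7 and 133 FPKM in control and to 102, 45.9 and 54.9 in induced cells, with 3, 3 and 0 higher and 0, 1 and 5 lower. By any amount, 11, 9 and 2 of the 12 were higher in induced cells, with medians of 0.62, 0.38 and -0.60. Col1a2, a collagen chain, made up most of the induced sum at days 2 and 4, with 1.76, 1.003 and 9.72 FPKM in control and 80.2, 30.4 and 11.2 in induced cells. Postn, a matrix protein, had 0.143, 0.101 and 33.0 against 1.496, 5.36 and 6.79, Col3a1 had 0.672, 0.192 and 28.6 against 2.2, 0.639 and 5.46, and Lum had 0.319, 0.0685 and 11.7 against 1.13, 0.473 and 1.91. Of the 12, 9, 6 and 11 reached 1 FPKM in either library on the 3 days. Fap, a protease gene that was not among them on any day, was listed at 0 in both libraries of day 6. It did not exceed 0.147 in the others. The part of feeder cells in the Hox differences was not tested.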

How the data were processed

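The authors deposited 1 table of FPKM values per gene and library and 1 list of Oct6 peaks with a score. The submitters' processing notes name mm9 as the genome and the tools HOMER, TopHat 1.4.1, Cufflinks 1.3.0 and Cuffdiff, without roles. Annotation, peak settings and the scale of the score are not stated in the sources used. Gene positions came from GENCODE M1 on NCBIM37, the same assembly as mm9, and all peaks on its chromosomes lay inside their lengths.

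From the deposited FPKM, log2(FPKM + 1) was computed, and limma 3.58.1 in R 4.3.3 (lmFit, eBayes with trend, day as a block, two-sided, Benjamini-Hochberg over all 13661 genes) tested the difference over 3 days; the step recovered the sign of planted changes in simulated data. Fragments were estimated from the most frequent lowest step of FPKM times length in genes with 1 annotated transcript, and are estimates. Alternatives were a pseudocount of 0.1, a minimum of 0.5 FPKM or none, median ratio scaling, quantile normalisation, no day block and each day left out.

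The Hox genes and all lists were chosen with earlier results of these data known. Hox genes with 1 FPKM in some library are given with all 6 values, apart from the one left out; of each gene list and of the fibroblast markers, members among the 4 with the largest difference and 1 FPKM in some library are named. Pou5f1, Afp and Fap were named after their values were seen; other marker lists are given by sums and counts. A few genes, 1 Hox gene among them, are included in counts, sums and medians but not reported by name here. Python 3.11.15, numpy 2.4.6 and pandas 2.3.3 were used.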

Additional observations from a re-analysis of the deposited data

Results flagged for a closer look

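A few Hox genes changed sign between 2 comparisons of the same kind; with 1 library per arm and day the difference was not tested. Hoxb6 was higher in induced cells by 1.16 at day 2 and differed by -0.12 at day 6. For Hoxc4 the values were -0.07 (day 4) and 1.14 (day 6), and for Hoxd10 -0.14 (day 2) and 1.04 (day 6). Hoxb8 differed between days 2 and 4 by -0.37 in control and by 1.5 in induced cells.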

How the results depend on the processing

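No Hox count turned direction under the alternatives tried. With a pseudocount of 0.1, the count of Hox genes higher in induced cells at day 6 was 25 in place of 16, control day 6 against day 2 gave 14 higher, induced day 4 against day 2 gave 3 higher and 2 lower, and induced day 6 against day 4 gave 1 lower. Quantile normalisation gave 10 higher at day 6. Median ratio scaling shifted the median of all genes from 0.10 to 0.00 at day 4, and the medians of the 39 Hox genes became 0.22, 0.51 and 0.86; quantile normalisation gave 0.14, 0.46 and 0.75 (both scalings of this median were chosen after seeing the data). In limma, the fit with no minimum level gave 14 Hox genes higher and 1 lower at an unadjusted p under 0.05 (10.4% and 3.45% of genes). The fit with no replicate block, day left out, gave 10 higher (7.39%) at that threshold. With 1 day left out, 9 to 18 were higher at it, and 0 to 2 passed after adjustment; the 9 came without day 4 and the 2 without day 2. With peaks of at least the median score, 1 peak, that in Hoxb4, was left in the clusters. The cause of these shifts was not tested. The block of the main fit is the day, which pairs the arms. The labels give no replicate numbers, so no other pairing was tried.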
